A study of Mus musculus with 6 samples.

Results

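Basal myoepithelial cells were described in single-cell RNA libraries made from dissected collecting lymphatic vessels of mouse skin. A cell was a member when its droplet held 4 or more UMIs (unique molecular identifiers, 1 per captured transcript) of the basal keratins Krt5 and Krt14 together. That sum also had to lie above the sum of the luminal keratins Krt8 and Krt18, with no UMI of the leukocyte gene Ptprc or the endothelial gene Pecam1. Members were 174 of 24488 kept barcodes, that is, barcodes with 500 or more detected genes of which mitochondrial genes gave no more than 10% of UMIs. Acta2, smooth muscle actin and the marker in the name that the rule did not use, had a UMI in 158 of the 174 cells (90.8%). Members were chosen by their Krt5, Krt14, Krt8, Krt18, Ptprc and Pecam1 UMIs, so values of these 6 genes are given as a description only. The 2 comparison sets were cut in the same way. Luminal epithelium (545 cells) had 4 or more Krt8 and Krt18 UMIs, above the basal sum, and no Ptprc or Pecam1. Vessel smooth muscle (233 cells) had 10 or more UMIs of Acta2, Myh11 and Tagln together and none of Krt5 or Krt14.

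The study made 6 libraries from C57BL/6 mice, 1 for each age and labelled sex: young (6 weeks), middle-aged (12 months) and aged (18 months). Vessels between the inguinal and axillary lymph nodes were made visible with Evans Blue, freed of fat and connective tissue, digested with collagenase, elastase, dispase and DNase, and cleared of red cells. The labels name no transgene, the number of mice behind a library is not stated, and the aged mice were supplied by the National Institute on Aging, so supplier, library and age cannot be told apart. Each library thus stands alone for its age and labelled sex, and values of members were not tested between libraries.

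Myoepithelial cells are epithelial cells that also carry a smooth-muscle-type contractile apparatus. In the mammary gland, where they are best known, they form the outer, basal layer of ducts and alveoli, rest on the basement membrane through hemidesmosomes, and contract in response to oxytocin to move milk. The inner, luminal layer holds hormone-sensing cells and secretory cells. The labels name dermal vessels as the source and do not name a gland.

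Members were found in the young female library (41 cells), the library labelled middle-aged male (116 cells) and the aged female library (17 cells). Their share of kept barcodes was 0.912% (95% exact binomial interval 0.655% to 1.23%) in the young female library. It was 1.82% (1.51% to 2.18%) in the library labelled middle-aged male and 1.20% (0.699% to 1.91%) in the aged female one. No member was found in the young male library, the aged male library or the one labelled middle-aged female, with 8228, 2982 and 999 kept barcodes, which allows shares of up to 0.0365%, 0.101% and 0.300%. Intervals and limits cover counting error only. In those 3 libraries Krt5 and Krt14 had 0, 1 and 1 UMIs over every barcode of any size, and luminal cells were also 0. Basal and luminal cells were therefore present together in 3 libraries and together undetected in the other 3.

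For the middle-aged pair, sex-linked genes went against the labelled sexes. In the library labelled middle-aged male, Xist, the RNA of the inactive X chromosome, stood at 1402 CPM (a gene's UMIs scaled to the total of its own sum) and 4 Y-linked genes at 0.106 CPM. In the library labelled middle-aged female, Xist stood at 0.255 CPM and the Y-linked genes at 265 CPM. The young and aged pairs matched their labels, with Xist at 1356 and 883 CPM in the females and at 0.0793 and 0.0773 CPM in the males. Members from all 3 libraries had Xist between 1177 and 1487 CPM and no Y-linked UMI. The library is called by its label below.

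**Figure D1:**
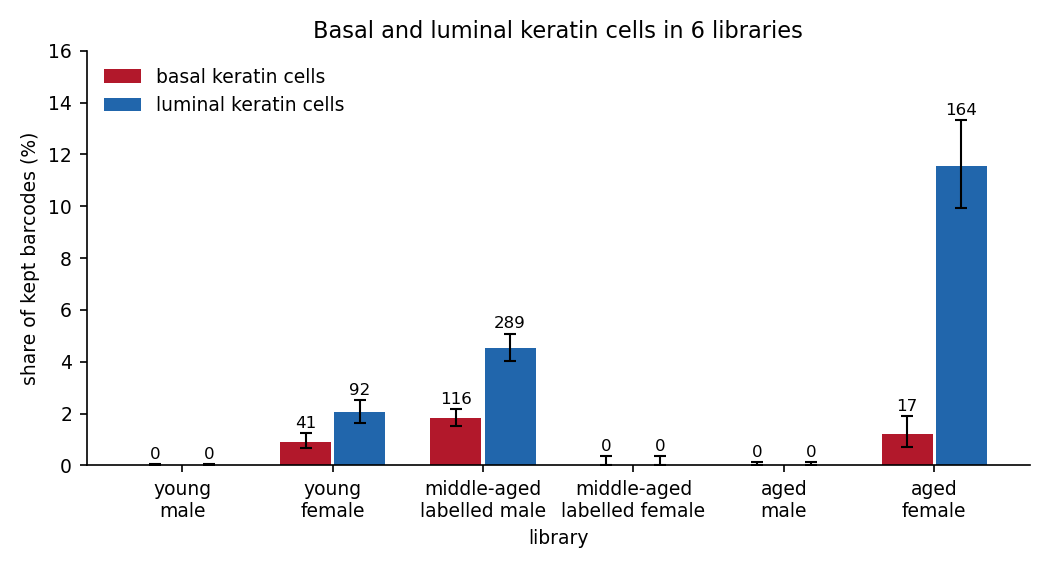
Share of kept barcodes (%) that were basal keratin cells (red) or luminal keratin cells (blue) in each of the 6 libraries. Bars show the share of 1 library, lines the 95% exact binomial interval, and numbers the cells; both sets were at 0 in 3 libraries.

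Basal cells took a smaller share of the epithelial cells in the aged female library. Of basal and luminal cells together, basal cells were 30.8% (23.1% to 39.4%) in the young female library, 28.6% (24.3% to 33.3%) in the library labelled middle-aged male and 9.39% (5.57% to 14.6%) in the aged female library. The aged interval lay below both others, which overlapped each other. The keratin rule itself moved with this share: of 217 cells with 4 or more basal keratin UMIs, 37 were left out because luminal keratins were as high or higher, and 28 of these 37 were in the aged female library. In the 32 cells among them that were free of Ptprc and Pecam1, both lineages were read together. Acta2 had a UMI in 31 of the 32 cells and the milk protein gene Csn3 in 87.5%, their median depth was 37459.5 UMIs against 2231 to 5953 in members, and Scrublet marked 0 of them as doublets. Whether such cells are doublets, share free RNA or carry both programs was not tested.

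Members differed widely in how strongly they were read. Krt5 and Krt14 together had 4 to 40 UMIs per cell with a median of 6, and 130 cells had both keratins, 41 had Krt14 alone and 3 Krt5 alone. Acta2, Myh11 and Tagln together ran from 0 to 138 UMIs with a median of 14.5. They were at 0 in 7 cells (4.02%), between 1 and 9 in 61, and at 10 or more, the level that marks the smooth muscle set, in 106 (60.9%, interval 53.2% to 68.2%). Of these cells, 19 lay close to that level, between 8 and 11 UMIs. These sums ran from 0 to 93 UMIs in the young female library, from 0 to 87 in the library labelled middle-aged male and from 1 to 138 in the 17 aged cells. The 7 cells at 0 held 1016 to 2319 UMIs in all, below the member median of 2352. Whether such cells lack contractile RNA or were read too shallowly was not tested. At the edge of the rule, Acta2 had a UMI in 83.9% of the 31 cells just outside it (3 basal keratin UMIs) and in 82.1% of the 39 just inside it (4 UMIs). Scrublet marked 7 of the 174 members, 1 in the young female library and 6 in the library labelled middle-aged male, and no barcode was shared among members of different libraries.

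**Figure D2:**
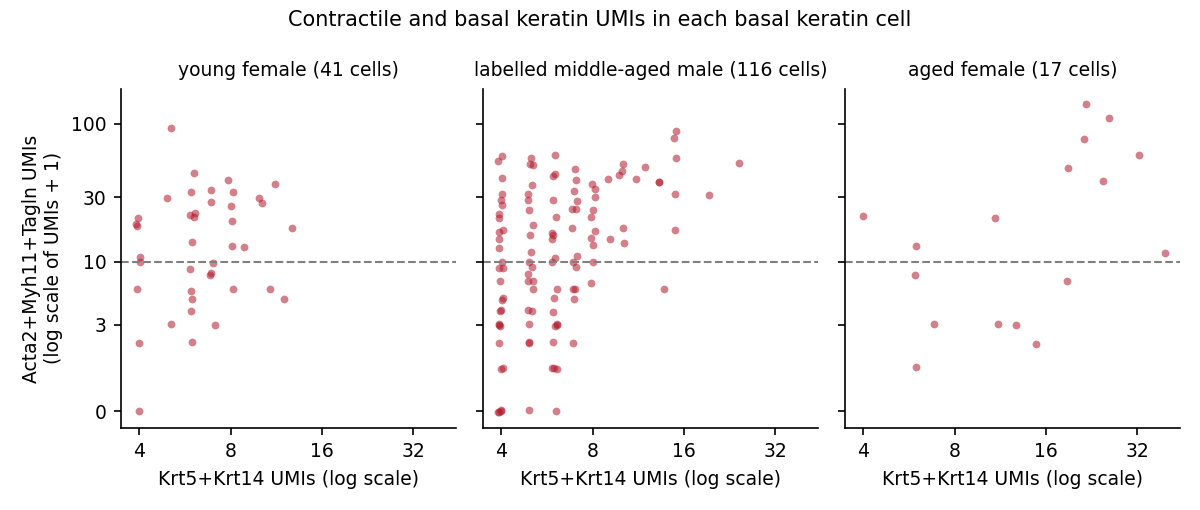
UMIs of Acta2, Myh11 and Tagln together (vertical, log scale of UMIs + 1) against UMIs of Krt5 and Krt14 together (horizontal, log scale) in each basal cell, with a small random shift so that equal cells can be seen; the dashed line marks 10 contractile UMIs. Points are cells of the young female library (41), the library labelled middle-aged male (116) and the aged female library (17), and 106 of the 174 lie on or above the line.

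Acta2 was read in most members and seldom in cells with fibroblast markers that fell in none of the other sets. Acta2 had a UMI in 92.7%, 89.7% and 94.1% of members in the young female, labelled middle-aged male and aged female libraries. After each cell was thinned to 1000 UMIs the shares were 82.9%, 82.6% and 64.7%. Cells of the same libraries with 10 or more UMIs of fibroblast markers had median depths of 3588, 3212 and 5158 UMIs. This set left out cells of the basal, luminal and smooth muscle sets, and cells with Ptprc or Pecam1. Acta2 had a UMI in 1.43%, 1.40% and 2.66% of it. Smooth muscle cells, chosen partly by Acta2, were gone before the count, so these shares are low in part by rule. Krt17, another basal keratin, was read in 80.5%, 75.0% and 64.7% of members, and Trp63, the transcription factor of basal epithelia, in 56.1%, 37.1% and 52.9%. Markers of the epidermis between follicles were rare, while some hair follicle markers were read. Krt1, a keratin of differentiating epidermis, had no UMI in any member, and the 9 interfollicular epidermis markers summed to 9.72, 71.9 and 63.0 CPM. Krt10 had a UMI in 0%, 5.17% and 17.6% of members, against 13.6%, 6.59% and 15.5% of fibroblast-marker cells. The 9 hair follicle markers summed to 709.6, 719 and 473 CPM, and to 425, 446 and 373 CPM in luminal cells. Of these, Krt15, Sox9 and Lgr5 were read in all 3 sums, and these genes are also known in mammary epithelium. Krt71, a keratin of the same list, had a UMI in 3 of the 174 cells and Lhx2 in 1. Krt25, Krt27, Krt75 and Krt79 had none. Desmin (Des), an intermediate filament protein of vascular muscle, had no UMI in any member, and it was read in 60.0%, 54.3% and 40.0% of smooth muscle cells.

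RNA of other cells was present in the member sums at low levels that differed between libraries. The 6 fibroblast markers summed to 467, 989 and 168 CPM in the young female, labelled middle-aged male and aged female members, and the 6 macrophage markers to 389, 164 and 52.5 CPM. Endothelium markers summed to 29.2, 20.5 and 0 CPM. The part of this RNA in the results that follow was tested only by leaving out cells with more than 2 such UMIs, in the luminal comparison. The member sums held 102870, 292178 and 95190 UMIs, with median depths of 2461, 2231 and 5953 UMIs per cell, against luminal medians of 6634, 5002 and 17158.5. UMIs count 1 tag at the 3′ end of a transcript, so they were not scaled by gene length.

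Contractile genes were higher in basal than in luminal cells. The list of 26 contractile genes summed to 19413, 20135 and 16388 CPM in the young female, labelled middle-aged male and aged female basal sums. Luminal sums of the same libraries held 1978, 2221 and 3064 CPM. Every basal sum was thus at least 5 times every luminal one in level. Sums of the young female library and the library labelled middle-aged male were compared by edgeR's quasi-likelihood test with library as a block, since 17 aged members fell below the minimum of 20 cells per sum; a call has a Benjamini-Hochberg adjusted p under 0.05. Over all 7137 genes tested, 697 (9.77%) were called, 359 (5.03%) higher in basal cells and 338 (4.74%) lower. Of 23 contractile genes tested, 20 were called higher and 0 lower, with a median log2 difference of 4.74 against -0.10 over all genes. The 0 lower stood at 0 at an unadjusted p under 0.05 and by DESeq2 too. With 2 libraries the model had 1 residual degree of freedom. The block takes out differences between libraries, and edgeR draws each gene's spread toward a trend over all genes. The p-values therefore rest largely on spread shared across genes, and only in part on how a gene's difference varied between these 2 libraries. Adding the aged female sums gave 1096 calls of 6893 genes (15.9%), 576 higher (8.36%) and 520 lower (7.54%), of which 632 were shared with the 697 calls, and again called 20 of 23 contractile genes higher.

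Among the filament genes, Acta2 stood at 4238, 4182 and 2794 CPM in the basal sums and at 33.8, 90.5 and 329 CPM in the luminal ones. The basal and luminal values did not overlap, and the log2 difference was 6.07 ± 0.50 (SE, adjusted p = 0.00089). The rise of luminal Acta2 toward the aged library had a background beside it: barcodes of 1 to 100 UMIs, taken as droplets with little but free RNA, read Acta2 at 141, 138 and 388 CPM in the same 3 libraries. Myh11, the smooth muscle myosin heavy chain, stood at 699.9, 1201 and 1397 CPM against 5.96, 16.3 and 103 CPM, a log2 difference of 6.30 ± 0.42 (adjusted p = 0.0006). Its myosin partners followed: Mylk, the kinase that starts contraction by phosphorylating the myosin light chain, differed by 5.92 ± 0.41 (adjusted p = 0.0006) and Myl9, that light chain, by 5.46 ± 0.56 (adjusted p = 0.0015). Thin-filament genes were called higher as well, with Tpm2 (tropomyosin) at 6.64 ± 0.43, Cnn1 (calponin) at 6.23 ± 0.42, Tagln at 6.14 ± 0.62 and Cald1 (caldesmon) at 4.74 ± 0.43. The 3 genes tested and not called were Myl6 (1.12 ± 0.31, adjusted p = 0.061), Vcl (0.69 ± 0.34, adjusted p = 0.27) and Srf (1.10 ± 0.40, adjusted p = 0.14), which luminal cells also expressed, Myl6 at 1060 and 884 CPM.

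Serum response factor, encoded by Srf, binds the CArG box and is known to drive smooth muscle contractile genes, so the promoters of the list were searched for that box. The box was sought in its exact form CCWWWWWWGG, with W for A or T, so boxes with another base in the core were not counted. Both strands of the 250 bases before each RefSeq start site (GRCm38.p6) were searched, and 21 of the 26 listed genes were matched. Of these, 4 held it, Myl9, Myl6, Vcl and Srf, which is 19.0% of 21, against 439 of 27025 genes (1.62%) overall. A box is a match of letters and not a bound site. Acta2, whose contractile RNA was read in nearly every member, had no box of this exact form in this window, and looser forms were not sought. The stretches around the box are shown because they are what these promoters share, for the genes whose stretch overlapped no annotated exon (Myl6 did). Capitals mark the CArG boxes, and 30 bases or those up to the end of the window are given on each side, 5′ to 3′ on the gene's strand.
Myl9, chr2:156775273-156775342, plus strand: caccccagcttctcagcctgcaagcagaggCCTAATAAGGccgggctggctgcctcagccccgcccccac
Vcl, chr14:20929148-20929210, plus strand: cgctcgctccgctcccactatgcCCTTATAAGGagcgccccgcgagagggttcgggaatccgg
Srf, chr17:46556185-46556274, minus strand: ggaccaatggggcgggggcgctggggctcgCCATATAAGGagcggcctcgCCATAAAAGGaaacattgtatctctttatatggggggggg
Among the genes with the box, Myl9 was called higher in basal than in luminal cells, and Myl6, Vcl and Srf were the 3 tested members of the list that were not called.

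**Figure D3:**
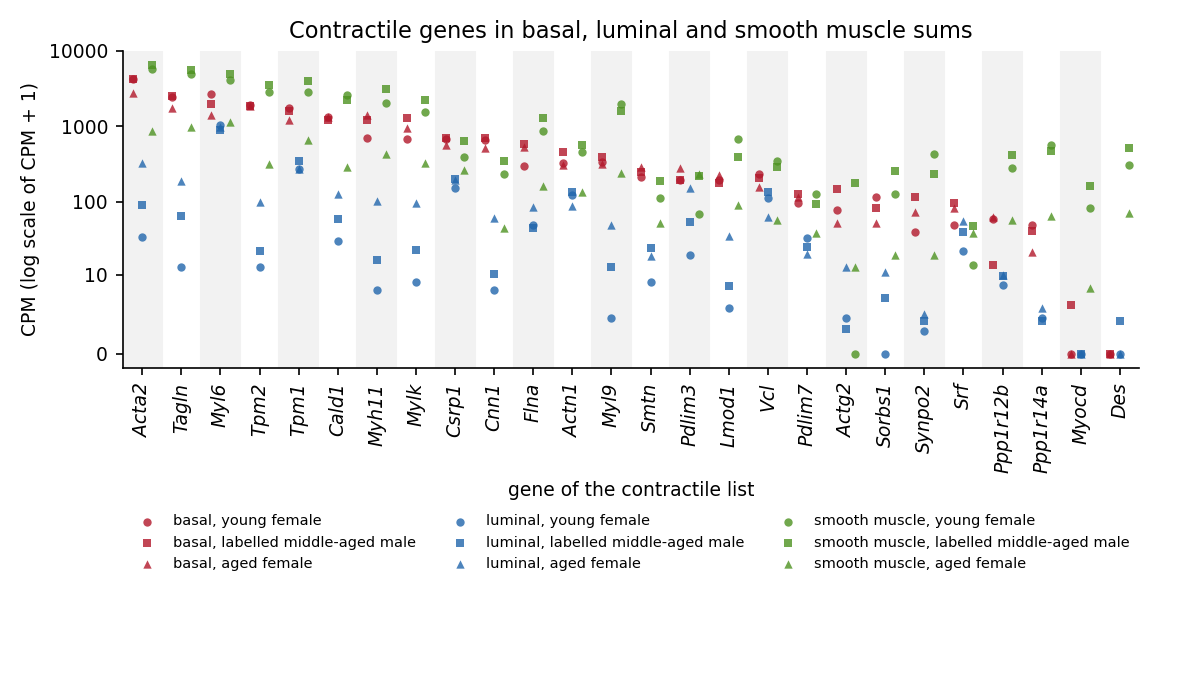
CPM (log scale of CPM + 1) of each gene of the contractile list in basal (red), luminal (blue) and smooth muscle (green) sums of the young female library (circles), the library labelled middle-aged male (squares) and the aged female library (triangles), ordered by mean basal CPM. Points are single sums with no replicate; Acta2 lay between 2794 and 4238 CPM in basal and at most at 329 CPM in luminal sums, and the aged smooth muscle sum lay below the other smooth muscle sums for most genes.

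Against vessel smooth muscle, 12 of 21 contractile genes were lower in basal cells and Cnn1 was higher when the aged female library was left out, and none was called with it. The list summed to 33726 CPM in the young female smooth muscle sum and 40128 CPM in that of the library labelled middle-aged male, above the 19413 and 20135 CPM of basal cells. The aged female smooth muscle sum, at 6623 CPM, lay below. That set of 10 cells was mixed: 3 of the 10 also passed the luminal rule, against 2 of 46 in the library labelled middle-aged male, and its 11 luminal secretory markers summed to 13015 CPM. Smooth muscle sets of the 3 other libraries, which held no basal cells to compare, stood at 23702, 34324 and 53974 CPM. All these sums include Acta2, Myh11 and Tagln, the genes that chose the smooth muscle cells, while basal cells met no such cut. Their level in smooth muscle was thus partly set by the rule. Whether the cut also raised the other contractile genes in that set was not tested. With all 3 libraries, 0 of 17 contractile genes were called either way by edgeR, 2 higher and 1 lower at an unadjusted p under 0.05, and 0 by DESeq2, beside 37 (2.49%) higher and 23 (1.55%) lower of all 1483 genes (60 calls, 4.05%). Without the aged female library 390 of 1588 genes (24.6%) were called, 193 (12.2%) higher and 197 (12.4%) lower. Of 21 contractile genes 1 was then higher and 12 lower, with a median of -0.93 against 0.00 over all genes. The minimum for this comparison was 10 cells, since at 20 only 1 library could be used.

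The values without the aged library follow, since the 2 settings differ. Cnn1 stood at 671 and 698 CPM in basal cells of the young female library and the library labelled middle-aged male and at 237 and 354 CPM in smooth muscle, a log2 difference of 1.26 ± 0.37 (adjusted p = 0.023). Calponin is known in smooth muscle as a thin-filament protein, and its basal sums lay above the smooth muscle ones in both libraries. Myl9 stood at 340.2 and 394 CPM against 1951 and 1605 CPM, a difference of -2.20 ± 0.30 (adjusted p = 0.00024). Ppp1r14a, the inhibitor of myosin phosphatase known as CPI-17, stood at 48.6 and 41.1 CPM against 571 and 472 CPM, a difference of -3.46 ± 0.43 (adjusted p = 0.00011). Ppp1r12b, a subunit of that phosphatase, was also lower (-3.59 ± 0.63, adjusted p = 0.0012). Tpm2 (-0.72 ± 0.19) and Mylk (-0.93 ± 0.25) were lower by less (adjusted p = 0.015 each), and Tpm2 turned in sign with the aged library, at 0.14 ± 0.71. Des had 0 UMIs in the basal sums of these libraries and 66 in smooth muscle, at least 55.5-fold lower with 3 UMIs over the group taken as the floor. Myocd, the coactivator of smooth muscle genes, was too sparse to test, with 0, 3.42 and 0 CPM in basal sums and 83.6, 165 and 6.42 CPM in smooth muscle sums. Smtn (0.66 ± 0.44), Pdlim7 (0.13 ± 0.53) and Vcl (-0.48 ± 0.37) were not called.

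Among receptors and junction genes, Oxtr and Gja1 were higher in basal cells than in both other sets. Oxtr, the oxytocin receptor (chr6:112473683-112489943, GRCm38), stood at 603, 192 and 357 CPM in the basal sums, at 5.96, 2.81 and 12.4 CPM in luminal sums and at 0, 23.6 and 19.3 CPM in smooth muscle sums of the same libraries. Smooth muscle of the 3 libraries without basal cells had no Oxtr UMI. Basal sums did not overlap either other set, and Oxtr was 6.23 ± 0.44 higher than in luminal cells (log2, adjusted p = 0.00061) and 4.30 ± 0.67 higher than in smooth muscle (adjusted p = 0.015 with 3 libraries, 4.76 ± 0.79 without the aged one). Gja1, the gap junction protein connexin 43, stood at 194, 366 and 137 CPM in basal sums. It was 3.81 ± 0.54 above luminal (adjusted p = 0.0055) and 2.56 ± 0.48 above smooth muscle sums (adjusted p = 0.025). Of the 27 receptor and calcium genes, 14 were tested against luminal cells, with a median of -0.48. By edgeR 2 were called higher (Oxtr, Gja1) and 2 lower, and by DESeq2 2 higher and 0 lower. The lower ones were Agtr1a, an angiotensin receptor with 0 UMIs in basal sums and 575 in luminal ones (at least 27.2-fold lower), and the stretch-gated channel Piezo1, with 1 UMI against 136 (ratio 19.3, 95% counting interval 3.403 to 767).

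Some receptor and calcium genes were lower in basal cells than in smooth muscle when the aged library was left out, and others were not called. The vasopressin receptor Avpr1a had no UMI in any basal sum, which allows up to 35.9 CPM in the young female one, and was not called. In smooth muscle it had 4 UMIs in the young female library (55.7 CPM) and 3 in the library labelled middle-aged male (35.4 CPM). Pln (phospholamban, the brake on the calcium pump of the reticulum) had 0 UMIs in basal cells and 24 in smooth muscle of those libraries, at least 20.2-fold lower. Ednra, an endothelin receptor, had 2 against 20 UMIs (-4.50 ± 1.22, adjusted p = 0.016; ratio 25.2, interval 6.13 to 223). Atp2b4, a calcium pump of the cell membrane, was lower by -4.14 ± 0.58 (adjusted p = 0.00027) and Itpr1, the calcium release channel, by -1.54 ± 0.47 (adjusted p = 0.03). Atp2a2, the reticulum pump itself, did not pass in either comparison (0.87 ± 0.33 against luminal cells, -0.20 ± 0.35 against smooth muscle). In all, 2 of 11 genes of this list were higher and 5 lower than in smooth muscle without the aged library. With it, 2 of 7 were higher and 0 lower by edgeR and by DESeq2, with 1 lower at an unadjusted p under 0.05.

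**Figure D4:**
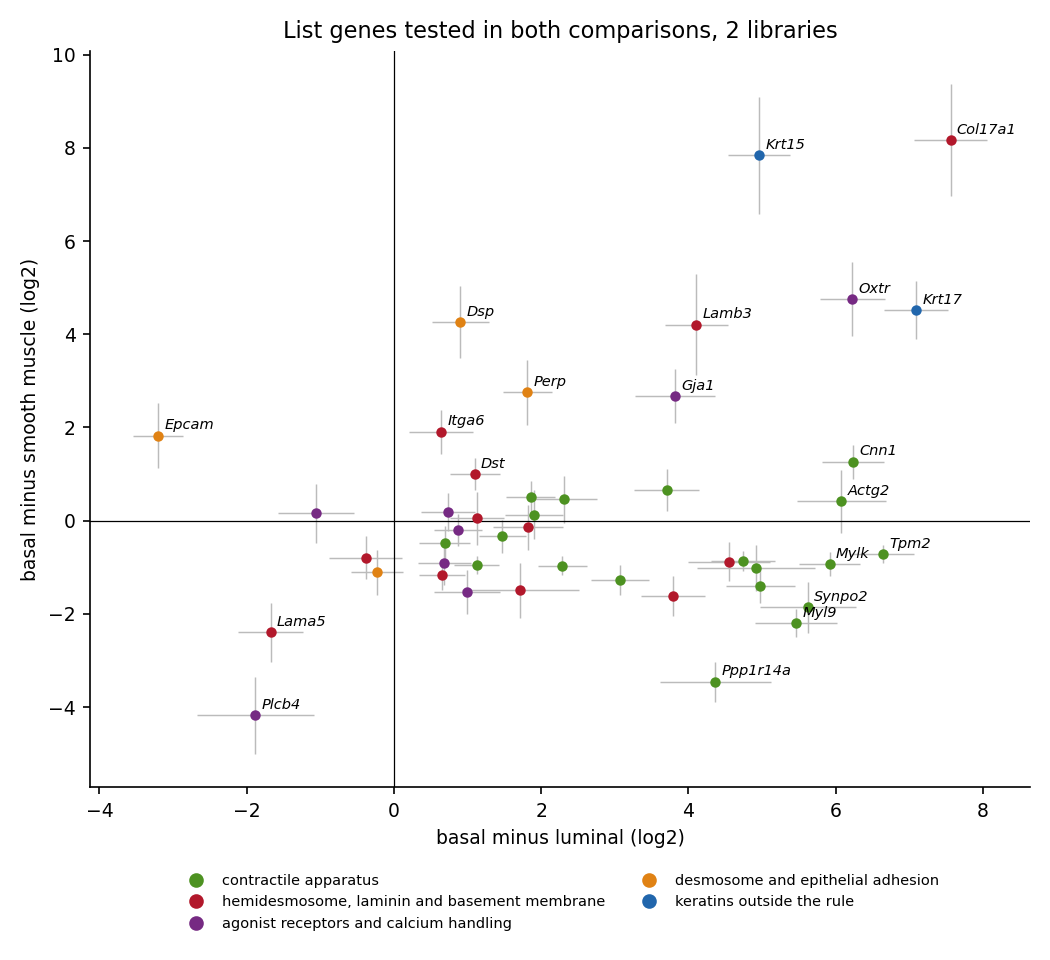
Log2 difference of basal from luminal cells (horizontal) and from smooth muscle (vertical) in the young female library and the library labelled middle-aged male, for the 45 genes of 5 lists tested in both; lines are standard errors and both axes share the basal sums. Most contractile genes (green) lie to the right and near or below 0 on the vertical axis, with Cnn1 above it at 1.26, while Col17a1, Krt15, Krt17, Oxtr and Gja1 lie to the right and above.

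Several genes that anchor a basal cell to its matrix were higher than in luminal cells, while the hemidesmosome integrins were not called. Col17a1, the collagen XVII of hemidesmosomes (chr19:47646344-47692094, GRCm38), stood at 272, 243 and 504 CPM in basal sums and at 0.993, 1.12 and 10.8 CPM in luminal ones, and had no UMI in smooth muscle of the same libraries. Among named genes called higher in both comparisons, it had the largest log2 difference against luminal cells, 7.56 ± 0.50 (adjusted p = 0.0006). Against smooth muscle it was at least 31.2-fold higher over the 3 libraries, a lower bound that gives no rank there. The laminin chain genes Lama3 and Lamb3 differed from luminal cells by 5.36 ± 0.51 (adjusted p = 0.0012) and 4.11 ± 0.43 (adjusted p = 0.0015). Other basement membrane genes were called too: Col4a1 at 3.79 ± 0.43, Col4a2 at 4.54 ± 0.56, Hspg2 (perlecan) at 3.68 ± 0.58, Lama1 at 4.68 ± 0.86 and Lamb1 at 3.19 ± 0.64. In total 8 of 20 tested genes of this list were higher and 0 lower by edgeR or DESeq2 (1 lower at an unadjusted p under 0.05), with a median of 1.42 against -0.10 over all genes. The integrin pair of the hemidesmosome, Itga6 (0.64 ± 0.43, adjusted p = 0.42) and Itgb4 (0.78 ± 0.58, adjusted p = 0.47), was not called. Against smooth muscle without the aged library, 4 of 12 were higher (Col17a1, Itga6, Lamb3, Dst) and 3 lower, with a median of -0.47, the lower ones including Lama5 (-2.40 ± 0.64) and Col4a1 (-1.62 ± 0.44, adjusted p = 0.016). With the aged library 2 of 10 were higher, Col17a1 and Lamb3.

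Keratins and cell adhesion genes split by layer. Krt17 stood at 1594, 1338 and 1996 CPM in basal and 13.9, 6.74 and 19.5 CPM in luminal sums (7.09 ± 0.43, adjusted p = 0.0006), and Krt15 was higher by 4.96 ± 0.42 (adjusted p = 0.00092). The luminal keratins outside the rule were lower, Krt19 by -6.01 ± 0.44 (adjusted p = 0.00063) and Krt7 by -6.24 ± 0.65 (adjusted p = 0.0015). Since the rule sets basal against luminal keratins, these 2 pairs are not far from what chose the cells. Of 14 adhesion genes tested, 3 were higher and 6 lower by edgeR, with a median of -0.89. DESeq2 called 2 higher and 5 lower. Cdh3 (P-cadherin) was higher by 4.68 ± 0.86 (adjusted p = 0.015), with Perp and the desmosomal plakophilin Pkp1. Cdh1 (E-cadherin) was lower, at 19.4, 58.2 and 94.5 CPM against 223, 286 and 131 CPM (-2.76 ± 0.43, adjusted p = 0.0077), and so were Epcam (-3.21 ± 0.34), Ocln and the tight junction claudins Cldn3, Cldn4 and Cldn7. The 2 cadherins thus moved in opposite directions. Dsp (desmoplakin) and Perp, both of desmosomes, were above smooth muscle by 4.13 ± 0.57 (adjusted p = 0.0085) and 2.66 ± 0.59 (adjusted p = 0.047).

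Of 11 basal transcription and stem cell genes, 6 were higher than in luminal cells by edgeR and by DESeq2, with a median of 2.80. None was lower by either tool or at an unadjusted p under 0.05. Trp63 stood at 321, 216 and 179 CPM against 0, 4.50 and 10.2 CPM (6.34 ± 0.70, adjusted p = 0.0019), and Snai2 (Slug), a repressor of epithelial genes, was higher by 4.52 ± 0.77 (adjusted p = 0.011). Id4, a regulator of basal cells, was higher by 5.24 ± 0.44 and Lgr5, a Wnt pathway receptor that marks stem cells in several epithelia, by 7.05 ± 0.51 (adjusted p = 0.00089 and 0.00063). Lgr5 had 62 UMIs in basal and 3 in luminal sums of these libraries, a ratio of 146 (interval 47.6 to 726). Mef2c, a muscle transcription factor, lay between the other sets: 3.87 ± 0.78 above luminal (adjusted p = 0.021) and -2.22 ± 0.45 against smooth muscle (adjusted p = 0.035). Sox10, Sox9, Nfib and Tbx3 did not pass against luminal cells.

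Luminal lineage genes were low or unread in basal cells. Of 12 luminal transcription genes tested, 5 were lower and 1 higher by edgeR, with a median of -1.93. DESeq2 called 2 lower and 1 higher. Elf5 and Foxa1, factors of the secretory and hormone-sensing luminal lineages, had 0 UMIs in the basal sums of both libraries, at least 15.2-fold and 15.5-fold lower. Prlr, the prolactin receptor, had 1 UMI against 7574 (ratio 1074, interval 193 to 42417). The 1 higher gene was Tfap2c, at 224, 185 and 137 CPM against 17.9, 54.5 and 96.3 CPM (2.38 ± 0.50, adjusted p = 0.023), and Gata3 did not pass (-0.58 ± 0.42). Of 9 milk and secretory genes 8 were lower and 0 higher by edgeR, 4 lower by DESeq2, with a median of -7.83, or -2.76 with genes unread in basal cells held at their bound. Csn3 (kappa-casein) had 3 UMIs against 6089 (ratio 288, interval 98.4 to 1396), and the aged female basal sum had no Csn3 UMI beside 3229 CPM in luminal cells of that library. The naming rule, which goes by fitted fold, took Areg, Hp, Cdo1, Aqp5, Ido1, Gipc2, Tph1, Agtr1a, Kit and Smim22. All 10 had 0 UMIs in both basal sums, so their folds are lower bounds and give no order against other genes, from at least 20.1-fold (Smim22) to at least 128-fold lower (Areg, an EGF receptor ligand with 2701 luminal UMIs).

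Secreted signals differed in both directions. Of 22 growth factor and Notch genes tested, 8 were higher and 3 lower than in luminal cells by edgeR, with a median of 1.15. DESeq2 called 7 higher and 1 lower. The Notch ligands Dll1 (68.0, 151 and 105 CPM against 2.98, 3.37 and 10.6 CPM, 4.97 ± 0.52, adjusted p = 0.0016) and Jag2 (5.67 ± 0.80, adjusted p = 0.0053) were among the higher ones. Notch3, a receptor for them, had 0 UMIs in both basal sums against 114 in luminal ones, at least 5.39-fold lower. DESeq2 did not call it. In smooth muscle Notch3 stood at 446, 625 and 109 CPM in the young female, labelled middle-aged male and aged female libraries. Notch1, another receptor, had a UMI in 17 of the 174 members and was not called against luminal cells. Another ligand and receptor pair differed in the same directions: Nrg1, a ligand of Erbb3, was higher by 5.37 ± 0.59 (adjusted p = 0.0019), while Erbb3 had 1 UMI against 354 (ratio 50.2, interval 8.95 to 1988). For these named pairs the ligand was higher in basal and the receptor in luminal cells by edgeR. The pairs were picked from the list, and no contact between the cells was measured. The EGF receptor ligand Areg went the other way, as given above. Igfbp3 was higher by 6.98 ± 0.65 and Ctgf by 4.41 ± 0.68 (adjusted p = 0.0011 and 0.0075). Of 10 Wnt and BMP genes, 5 were higher and 1 lower. The higher ones were the Wnt inhibitors Wif1 (4.83 ± 0.71) and Sfrp1 (4.01 ± 0.61), with Dkk3 (4.42 ± 0.67), Fzd7 and Bambi. Wnt4, a ligand of hormone-sensing cells, was lower (2 against 921 UMIs, ratio 65.3, interval 18.0 to 540). The median of this list was 2.07.

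The chemokine Cxcl14 stood at 4511, 1554 and 1922 CPM in basal sums and at 22.8, 36.5 and 74.8 CPM in luminal ones (6.31 ± 0.63, adjusted p = 0.0015), and 155 of the 174 members had a UMI of it. Against smooth muscle it was 4.70 ± 1.15 with the aged library (adjusted p = 0.06) and 3.96 ± 0.80 without it (adjusted p = 0.0032). Of the 8 chemokine and cytokine genes tested against luminal cells, Cxcl14 and Ccl2 were higher and Lif and Csf3 lower by edgeR. DESeq2 called 2 higher and 0 lower. Matrix genes were more often higher than lower against luminal cells, with 9 of 15 higher by edgeR and 7 by DESeq2 (median 2.65). None was lower by either tool or at an unadjusted p under 0.05. They included Postn (periostin, 5.05 ± 0.45), Sparc (4.95 ± 0.75), Thbs1 (3.70 ± 0.78) and Col16a1 (4.17 ± 0.39). The fibrillar collagens Col1a1 (1.22 ± 0.67), Col1a2 (1.22 ± 0.71) and Col3a1 (0.15 ± 0.53), which are fibroblast products, did not pass. Against smooth muscle without the aged library, 2 of 12 matrix genes were higher and 4 lower (Timp3, Col3a1, Col1a2, Fn1), with a median of -0.66, and with it 1 of 8 was higher and 0 lower by edgeR and DESeq2, with 3 lower at an unadjusted p under 0.05. The list summed to 5735, 4812 and 4895 CPM in basal and to 11080, 6230 and 809 CPM in smooth muscle sums.

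Some stress and immune genes differed from luminal cells. Of 17 dissociation and immediate early genes, Socs3 was higher (2.19 ± 0.33, adjusted p = 0.0068) and Klf6 and Jund lower, with a median of -0.01. Against smooth muscle 0 of the 17 were called by edgeR or DESeq2, with 2 higher and 1 lower at an unadjusted p under 0.05. Without the aged library Socs3 was called higher there too (1.48 ± 0.43, adjusted p = 0.023). Of 10 antigen presentation genes, 2 were lower by edgeR (the immunoproteasome subunits Psmb8 and Psmb9) and 1 by DESeq2, with a median of -0.58. Of 7 interferon response genes, 2 were lower by edgeR (Bst2 and Iigp1) and 1 by DESeq2. Their median was -1.37, beside 4.74% lower by edgeR and a median of -0.10 over all genes. The 10 cell cycle genes summed to 87.5, 120 and 94.5 CPM in the young female, labelled middle-aged male and aged female basal sums. Luminal sums held 44.7, 89.9 and 129 CPM. Cdk1, Ccnb1 and Birc5 had no UMI in any member, and Mki67 stood at 9.72, 10.3 and 0 CPM. Pcna had a UMI in 34 of the 174 members. It was the 1 cell cycle gene tested and did not pass (1.13 ± 0.39, adjusted p = 0.12), although its unadjusted p was under 0.05. DESeq2 did not call it either.

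Genes beyond the lists also set basal cells apart from smooth muscle. Higher in all 3 libraries were Slpi, a secreted protease inhibitor (5.97 ± 0.86, adjusted p = 0.011), and Lgals7, the galectin of stratified epithelia (5.24 ± 0.63, adjusted p = 0.0044), at 3752, 623 and 1061 CPM and at 982, 787 and 1082 CPM. Cpne8, Fhod3 and Ptx3 were also higher by the same rule. Fhod3, a formin that organises actin, stood at 243, 171 and 221 CPM in basal cells and was high against both other sets (6.30 ± 0.47 against luminal cells, 4.33 ± 0.72 against smooth muscle). Lower in all 3 libraries were Sparcl1, Mustn1, Aspn, Cd36, Ebf1, Sorbs2, Igfbp4, Fabp4 and the mural cell genes Notch3 and Rgs5. Sparcl1 had 3 UMIs in basal cells against 390 (ratio 204, interval 69.3 to 994). Fabp4, a lipid carrier of adipocytes and capillary endothelium, stood at 15191, 2855 and 1874 CPM in smooth muscle sums, where 6 of 15, 1 of 46 and 3 of 10 cells also had a Pecam1 UMI. RNA of other cells was present in those smooth muscle sums, with fibroblast markers at 3359, 1274 and 64.2 CPM and endothelium markers at 1101, 82.6 and 154 CPM. In the young female set 9 of 15 cells had more than 2 fibroblast or macrophage marker UMIs. Cd36, a fatty acid receptor, stood at 1408, 330.4 and 148 CPM there. The part of that RNA in the genes lower in basal cells was not tested. Of 9 vascular muscle and pericyte markers 6 were tested without the aged library, and all 6 (Notch3, Des, Rgs5, Pln, Pdgfrb, Mcam) were lower in basal cells. Over all 1588 genes 12.4% were lower. Notch3, Des and Pln had 0 UMIs in both basal sums, so they passed the filter only through smooth muscle and could only be lower. The count of 6 is thus partly set by the filter and is a description.

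Between the young female library and the library labelled middle-aged male, 1 of 22 contractile genes of basal cells differed by at least 2-fold. Each age is 1 library, so values are given with 95% Poisson intervals for counting error and no test. Of 22 contractile genes with at least 20 UMIs in 1 of the 2 sums, Synpo2 was the 1 that did, with a median of 0.05 against 0.20 over all 2240 genes compared. Over those genes 332 (14.8%) were at least 2-fold higher in the library labelled middle-aged male and 45 (2.01%) lower. This imbalance moved with depth, since 20 UMIs are 194 CPM in the young sum and 68.5 CPM in the other. With both sums thinned to the smaller total, 100 genes of 848 were higher and 52 lower.

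Oxtr was lower in the library labelled middle-aged male, at 192 CPM (145 to 249), than in the young female one, at 603 CPM (462 to 773), and the aged female sum lay between them at 357 CPM (247 to 499). After thinning to 1000 UMIs per cell, 41.5%, 15.6% and 41.2% of young, labelled middle-aged male and aged members had an Oxtr UMI. Cxcl14 and Slpi were also highest in the young sum. Slpi stood at 3752, 623 and 1061 CPM, and Lgr5 stood at 292, 110 and 126 CPM. Higher in the library labelled middle-aged male were C3, the central complement protein (29.2, 459 and 221 CPM), Sgk1, a stress-responsive kinase (107, 530 and 242 CPM), and the chemokines Ccl2 (29.2, 233 and 21.0 CPM) and Cxcl1 (48.6, 209 and 42.02 CPM). C3 was higher there in luminal cells too, at 17.9, 193 and 293 CPM. Fibroblast markers summed highest in that basal sum (989 CPM), with Dcn at 194, 630 and 126 CPM, and their part in these values was not tested.

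The aged female basal sum was compared although it held 17 cells. Among contractile genes, Actg2 stood at 77.8, 147 and 52.5 CPM in the young, labelled middle-aged male and aged sums. Sfrp1 stood at 19.4 CPM (2.35 to 70.2), 110 CPM (74.9 to 155) and 410 CPM (291 to 560.1) in the young, labelled middle-aged male and aged sums, and Vegfa at 68.0, 181 and 336 CPM. Itga6, which was not called between the layers, stood at 204, 507 and 609 CPM, and Postn at 622, 774 and 2049 CPM. The young and aged intervals of these 4 genes did not overlap. The genes were named for being at least 2-fold apart between these same sums, so this adds no support. The 17 dissociation and immediate early genes summed to 23544, 16281 and 13857 CPM in basal cells and to 18405, 22075 and 22880 CPM in luminal cells of the same libraries. Members differed in order, with Fos at 5541, 3032 and 1681 CPM and Atf3 at 1487, 1006 and 462 CPM, while Klf4 stood at 651, 904 and 441 CPM and the heat shock gene Hspa1b at 204, 428 and 756 CPM. Antigen presentation genes of class II were highest in the young sum, Cd74 at 418, 127 and 10.5 CPM, and macrophage markers ran in the same order (389, 164 and 52.5 CPM), with Lyz2 at 185, 68.5 and 21.0 CPM. Against the young sum, 87 of 826 genes (10.5%) were at least 2-fold higher in the aged one and 73 (8.84%) lower. Against the library labelled middle-aged male, 84 of 2242 (3.75%) were higher and 288 (12.8%) lower. These comparisons share sums, and depth differed among them (20 UMIs are 210.1 CPM in the aged sum).

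**Figure D5:**
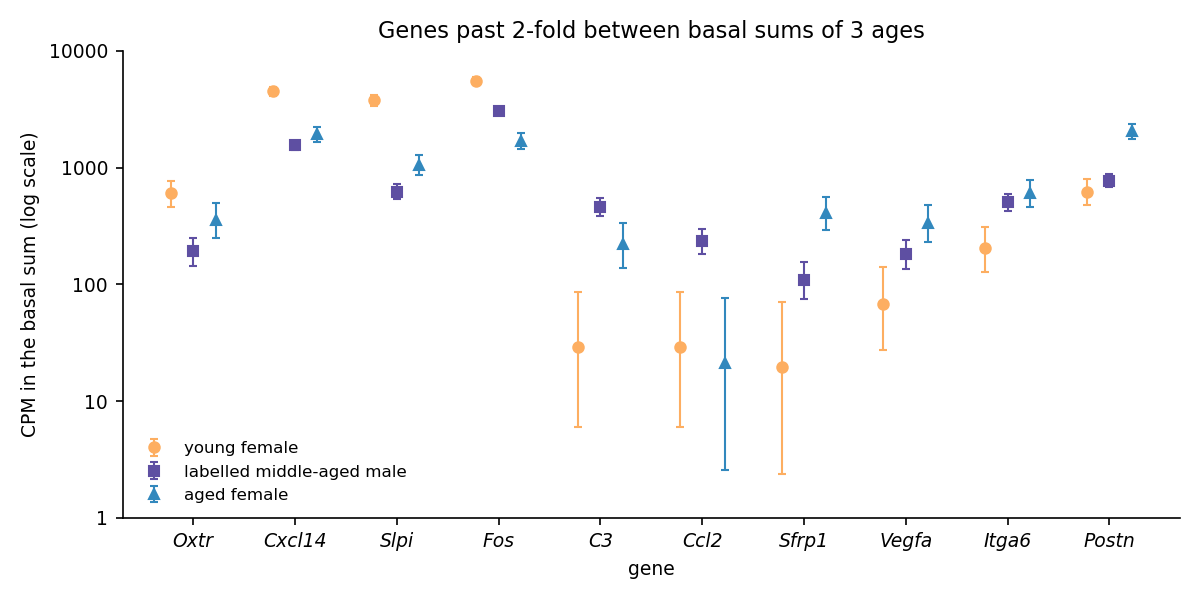
CPM (log scale) of 10 genes past 2-fold between basal sums of the young female library (circles), the library labelled middle-aged male (squares) and the aged female library (triangles), with 95% Poisson intervals of the counts of 1 sum each. Oxtr, Cxcl14, Slpi and Fos were highest in the young sum, C3 and Ccl2 in the library labelled middle-aged male, and Sfrp1, Vegfa, Itga6 and Postn in the aged sum.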

How the data were processed

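The deposited files hold raw UMI counts, genes by barcodes, per the file headers. The submitters' processing notes name Cell Ranger 3.0.2, the mm10 build and Seurat, the last without a version. The labels give 10x 3′ v2 chemistry. Per library, 9616652 to 28921825 UMIs lay in 6794880 listed barcodes. IDs sharing a symbol were summed, and 31011 of 31053 were found in GENCODE M21 (GRCm38).

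The keratin and contractile sets were cut with Python 3.11.15, numpy 2.4.6, scipy 1.17.1 and pandas 2.3.3, and doublets marked with Scrublet in scanpy 1.11.5 (6% expected, 590 barcodes, 2.41%) without removing them. Counts were summed per library and set and scaled to CPM. Sums were tested in edgeR 4.0.16 (R 4.3.3) with TMM factors, filterByExpr and library as a block, rule genes left out of the tests, or in DESeq2 1.42.0. Acta2, Myh11 and Tagln were also left out against smooth muscle. The planned minimum of 20 cells left 1 library against smooth muscle, so a minimum of 10, listed as its alternative, was used there. The block pairs the basal and other sum of 1 library, which come from the same droplets. On simulated counts with the luminal design (6941 genes), 40.7% of genes changed 4-fold and 80.7% of those changed 16-fold were called, with 1 false call among 6762. With the smooth muscle design (1774 genes) the shares were 85.7% and 100%, with 1 false call among 1599. Every simulated gene was drawn with the same spread around pooled means, and libraries differed in depth only. Mixed cell sets and RNA of other cells were not simulated, so these shares do not measure error in the real sums.

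Named genes were the members of the contractile, receptor and hemidesmosome lists, up to 5 per other list by smallest p, markers, and up to 10 per direction by fold among calls of 100 CPM or more that moved the same way in every library. Mitochondrial, ribosomal, hemoglobin, immunoglobulin and predicted genes were not taken for fold. Across ages, up to 8 per direction had 50 UMIs or more. Other gene names given were chosen after their values were seen. The members and lists were chosen with earlier results of these data known. Alternatives covered normalization, filters, doublets, keratin levels, minimum cells, thinning and left-out libraries.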

Additional observations from a re-analysis of the deposited data

Results flagged for a closer look

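Basal keratin RNA was also read outside cells. In barcodes of 1 to 100 UMIs, which the comparisons do not use, Krt5 and Krt14 together stood at 28.1 CPM in the young female library (63 UMIs), 49.2 CPM in the library labelled middle-aged male (100 UMIs) and 156 CPM in the aged female library (441 UMIs). The 3 libraries without basal cells had 0, 1 and 1 such UMIs. Krt8 and Krt18 in the same barcodes of the first 3 libraries stood at 657, 1038 and 2015 CPM. The aged female library was the highest in both.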

How the results depend on the processing

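The number of genes called between basal and luminal cells was 697. It was 341 with DESeq2, 1264 with no filter on low counts, 1096 of 6893 genes with sums of at least 10 cells (3 libraries) and 337 of 1777 with sums thinned to the smallest total, and stayed within 1.5 times under 5 other settings, with 557 without the library block. Leaving out 1 of the 2 libraries, or basal cells under 8 keratin UMIs, left 1 library and no fit. Of the 3-library fit, leave-one-out counts ran from 153 (without the library labelled middle-aged male) to 1030. Dcn turned to 3.28 and Cxcl2 to -2.80 without cells of more than 2 fibroblast or macrophage marker UMIs, where both were called (otherwise -0.13 and 0.47, neither called). Dcn is itself among the fibroblast markers that this filter counts, so its value there is partly set by the filter. Against smooth muscle the count was 60. It was 446 with no filter, 76 without the library block, and 63 to 390 on leaving out 1 library (109 without the library labelled middle-aged male, 390 without the aged female one). Leaving out smooth muscle cells that pass the luminal rule, a setting chosen after seeing the data, removed the aged library and gave 446, among them 59 of the 60. Tpm2 (0.14) ran from -0.72 (without the aged library) to 0.88 on leaving out 1 library and was -0.75 without the luminal-rule cells, where Trf (-0.33) turned to 2.42; the cause was not tested. In the smooth muscle comparison, with fibroblast- and macrophage-rich cells removed, or smooth muscle cells with any epithelial, leukocyte or endothelial rule UMI removed, 1 library was left and no fit was run. Genes at least 2-fold apart between young female and labelled middle-aged male members were 377, 144 of 736 at 8 or more basal keratin UMIs and 152 of 848 with both sums thinned, also chosen after seeing the data. Members numbered 174, and 54 at 8 or more basal keratin UMIs.

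Depth limits these results: members had a median of 2231 to 5953 UMIs, so a gene unread in a sum was not detectable rather than absent. The fits had 1 residual degree of freedom against luminal cells and 2 against smooth muscle. Their p-values rest on spread shared across genes and on how differences varied between these few libraries. With 1 library per age, nothing separates age from library, supplier or the number of mice. In sums, fewer transcripts per cell and fewer cells that express a gene cannot be told apart.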
